A study of Homo sapiens with 17 samples.

Results

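The genes described here encode the apoptosome and its trigger (APAF1, CYCS, CASP9), caspases outside it (CASP2, CASP6), and mitochondrial proteins that free caspases from their inhibitors (DIABLO, HTRA2). They were chosen by symbol from a table of expected counts, in which each entry is a gene and each value an estimate of its sequenced fragments. The 7 symbols matched 8 of 58870 table entries, since DIABLO has a second identifier, ENSG00000284934, with at most 1.45 counts in a library. That second entry failed the filter on low counts, so 7 of the 15365 genes tested were members. The executioner caspase among them is CASP6.

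RNA came from MDA-MB-231, a single established line of triple-negative breast cancer cells with a mesenchymal, basal B character. Cells received 45 nM of TRAIL, a ligand of death receptors, a dose the labels call suboptimal and meant to leave living cells to measure. RNA was taken at 0, 1, 3, 6, 12 and 24 h, and 3 libraries per time were used, or 2 in the case of 1 h. All 17 libraries carry the same TRAIL label, those at 0 h included, and none was labelled as an untreated culture of a later time. Time with TRAIL and time in culture therefore cannot be told apart. The labels do not say that replicates were separate cultures, so the p-values measure the spread between these libraries, which may be technical.

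When the outer membrane of mitochondria is opened, cytochrome c, the product of CYCS, reaches the cytosol and binds APAF1, the adaptor that assembles into the wheel-like apoptosome. The apoptosome recruits and activates the initiator caspase encoded by CASP9, which cleaves the executioner caspases. DIABLO (also called SMAC) and HTRA2 (a serine protease, also called OMI) leave the same compartment and relieve caspases of the inhibitor of apoptosis proteins. In TRAIL signalling this mitochondrial route amplifies the death receptor signal in cells where direct caspase cleavage is not sufficient. Release, assembly and cleavage of these proteins are not visible in RNA.

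Library totals ranged from 13731520 to 19234924 estimated counts, and the biological coefficient of variation common to all genes was 7.06%. Of the markers set for the line, VIM (2495 to 3724 CPM, counts scaled to a common library size), CD44 (1219 to 1557), AXL (661 to 966) and ZEB1 (31.9 to 65.8) were present in every library. ESR1, PGR and FOXA1 stayed at or below 0.148 CPM, and CDH1 at or below 1.01; GATA3 lay between 6.97 and 12.1, and ERBB2, set as not amplified, between 56.4 and 70.9. SPARC, set as present, lay between 0.216 and 1.07 CPM, and KRT8, set as low, between 804 and 1142, so both went against the list. Mitochondrially encoded transcripts took 5.53% to 8.37% of counts at 0 h, 7.65% to 9.71% at 1 h, 7.99% to 8.97% at 3 h, 3.97% to 5.45% at 6 h, 5.01% to 6.80% at 12 h and 3.66% to 4.14% at 24 h.

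APAF1, CASP6 and CYCS have 1 RefSeq promoter window each and changed between times. For CASP6 and CYCS, the bases of that window upstream of the annotated gene are shown, so that the letters can be set beside the values; that of APAF1 runs into a gene on the other strand, IKBIP. They are read 5′ to 3′ on the strand of the gene (GRCh38.p14), and capitals mark matches to CCAAT on either strand and to GCATGCGC, the core site of the respiratory gene regulator NRF1. The CASP6 stretch is chr4:109703584-109703695 on the minus strand, and that of CYCS is chr7:25125362-25125510 on the minus strand.
CASP6: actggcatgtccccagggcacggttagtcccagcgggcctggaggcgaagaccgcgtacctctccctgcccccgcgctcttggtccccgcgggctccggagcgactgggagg
CYCS: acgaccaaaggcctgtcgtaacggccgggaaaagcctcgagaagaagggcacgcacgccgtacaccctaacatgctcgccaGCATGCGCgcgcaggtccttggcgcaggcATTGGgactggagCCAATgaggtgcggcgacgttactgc
The search covered the 250 bases before each RefSeq start, which for CYCS lies 101 bases inside the gene as GENCODE draws it. In the CYCS stretch GCATGCGC begins at base 82, CCAAT on the opposite strand at base 111 and CCAAT at base 124, counted from 1 at the 5′ end. The APAF1 window held CCAAT on the opposite strand 211 bases before the RefSeq start, and CASP6 held neither motif. TTTGGCGC or TTTCGCGC (E2F) and a consensus for NF-kB were also searched and were in none of these 3 windows. In all 35116 RefSeq windows, searched on both strands, GCATGCGC was found in 2.63%, CCAAT in 32.0%, the E2F letters in 0.968% and the NF-kB consensus in 9.96%. A match describes these letters and is no measure of binding.

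Over the 6 times, 5 of the 7 genes varied beyond the spread between libraries, against 64.2% of all genes tested (edgeR quasi-likelihood F-test with Benjamini-Hochberg adjustment). These were APAF1 (adjusted p = 6.08e-06), CYCS (1.42e-05), CASP6 (2.75e-04), CASP9 (4.42e-04) and HTRA2 (0.00135). CASP2 (0.324) and DIABLO (0.201) did not pass. The ratio of the highest to the lowest mean level was 2.17 for APAF1, 1.57 for CASP9, 1.44 for CYCS, 1.41 for CASP6, 1.32 for HTRA2, 1.11 for DIABLO and 1.10 for CASP2. Of all genes tested, 12.2% had a larger ratio than APAF1, while 97.7% had a larger ratio than DIABLO.

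Against 0 h, 0 of 7 members were called at 1 h (edgeR adjusted p of 0.987 or more), where 0.312% of all genes were called. At 3 h, APAF1 and CASP6 were called lower, which is 2 of 7 against 17.7% of all genes. At 6 h there were 3 of 7 against 30.1%: APAF1 higher, CASP6 and CASP9 lower. At 12 h there were 2 of 7 against 12.4%: APAF1 higher and CYCS lower. At 24 h there were 4 of 7 against 35.1%: APAF1 and CASP9 higher, CYCS and HTRA2 lower. From 3 h on the count exceeded the background share by fewer than 2 genes at each time, and from 6 h on the calls went in both directions. The comparisons with 0 h share their control libraries.

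**Figure D1:**
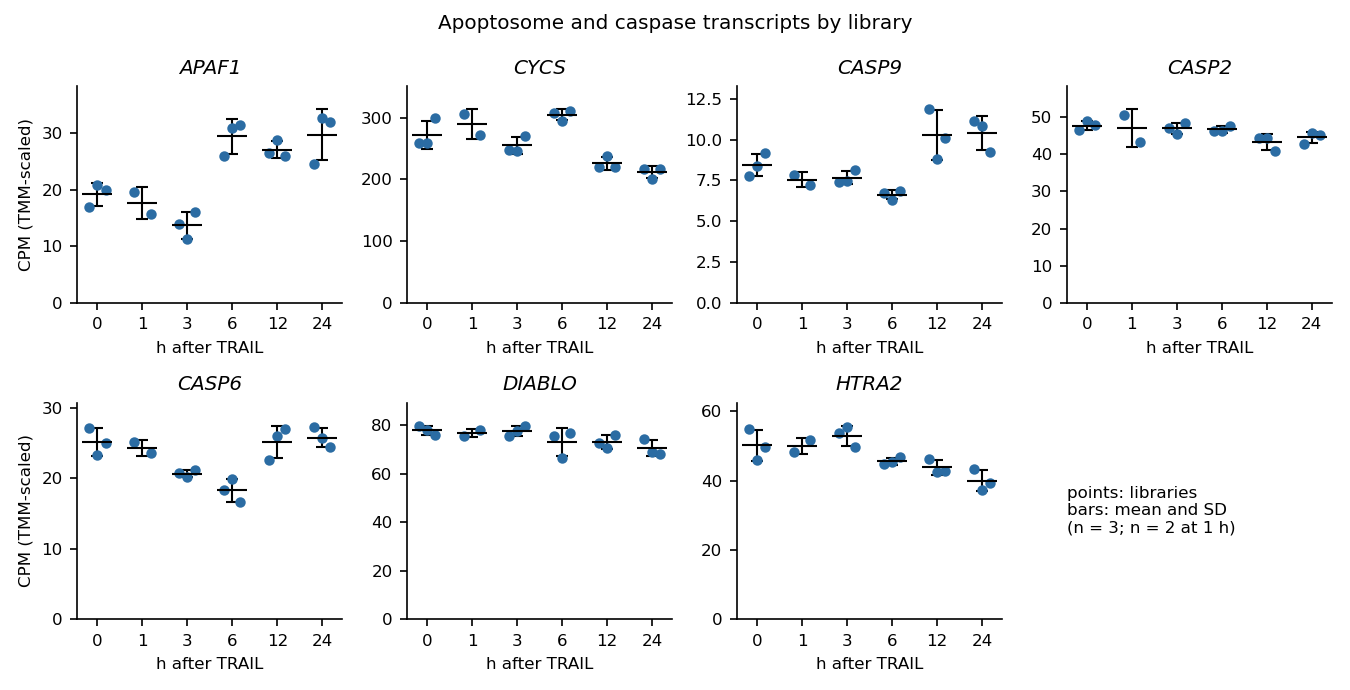
Level of each gene in every library against hours after TRAIL. The vertical axis is CPM scaled by trimmed mean of M values and starts at 0; points are libraries, bars are the mean and SD (n = 3, and n = 2 at 1 h). APAF1 drops to 11.2 to 15.99 CPM at 3 h and lies at 24.5 to 32.7 from 6 h on, while CASP2 and DIABLO stay nearly level.

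Divided by the length of the principal transcript, the levels at 0 h ran from CYCS (66.3 ± 5.64 CPM per kb, SD, n = 3) through DIABLO (52.9 ± 1.31), HTRA2 (21.2 ± 1.93), CASP6 (16.2 ± 1.26), CASP2 (11.3 ± 0.295) and CASP9 (4.17 ± 0.341) to APAF1 (3.52 ± 0.374). Neighbours in this order did not overlap at 0 h, and the closest were CASP9 (3.85 to 4.53) and APAF1 (3.10 to 3.81). Thus the RNA for the adaptor and its caspase was the scarcest of the set, and that for their activator the most abundant. At 6 h APAF1 (5.40 ± 0.555 CPM per kb) stood above CASP9 (3.28 ± 0.141). At the same time CASP6 (10.7 to 12.8 CPM per kb) overlapped CASP2 (10.9 to 11.3). At 24 h the libraries of APAF1 (4.51 to 6.00 CPM per kb) and CASP9 (4.56 to 5.51) overlapped, as did those of CASP6 (15.8 to 17.6) and HTRA2 (15.7 to 18.3).

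APAF1 (ENSG00000120868, GRCh38 chromosome 12, 98645141 to 98735433, plus strand) had the widest swing. The 0 h libraries held 16.9, 20.7 and 19.9 CPM, the pair of 1 h 19.6 and 15.6, the 3 h libraries 13.9, 11.2 and 15.99, and the 6 h libraries 25.9, 30.9 and 31.4. Later levels were 26.5, 28.7 and 26.0 CPM (12 h), then 24.5, 32.7 and 32.0 (24 h). All 3 h libraries lay below all 0 h libraries, and every library from 6 h on lay above every earlier one. In edgeR's quasi-likelihood test the log2 fold change against 0 h was -0.48 (SE 0.140, adjusted p = 0.0247) at 3 h and 0.62 (SE 0.128, adjusted p = 0.00172) at 6 h.

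Between 3 and 6 h APAF1 rose by 1.10 on the log2 scale (SE 0.135, edgeR adjusted p = 1.94e-05), where 43.2% of all genes were called and 3 of the 7 members. APAF1 was still higher afterwards: the change was 0.50 (edgeR adjusted p = 0.0156) at 12 h and 0.63 (0.0012) at 24 h against 0 h, and 0.13 (95% interval -0.13 to 0.39) between 12 and 24 h. At 6 h, 9.50% of all genes had a larger absolute change. The 3 h decrease did not pass without replicate 2 (adjusted p = 0.0993) or 3 (0.0839) of 0 h, or without replicate 1 (0.0644) or 2 (0.128) of 3 h. Likewise, the 12 h increase did not pass without replicate 1 of 0 h (0.0851) or replicate 2 of 12 h (0.0768).

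The estimated count of APAF1 was not whole in 13 of 17 libraries, and ANKS1B overlaps it on the opposite strand. The APAF1 gene has a long transcript (5444 bases), and long and short transcripts moved apart in these libraries as a whole. The slope of a library's log2 level on log2 transcript length, relative to all libraries, averaged -0.10 per doubling of length for the 3 h libraries, 0.08 for 6 h and 0.10 for 24 h. All genes tested were also split by length into 5 groups of like size. In the longest group (5118 bases or more), the median log2 change against 0 h was -0.06 (3 h), 0.18 (6 h) and 0.21 (24 h), and in the shortest it was 0.11, -0.22 and -0.23. The values of the longest group have the same signs as the changes of APAF1, and those of the shortest the opposite signs. With the trends on length and GC content removed, APAF1 stood at -0.43 (3 h), 0.47 (6 h), 0.40 (12 h) and 0.44 (24 h), each still called by edgeR (adjusted p = 0.00359, 3.83e-04, 0.00372 and 7.59e-04).

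**Figure D2:**
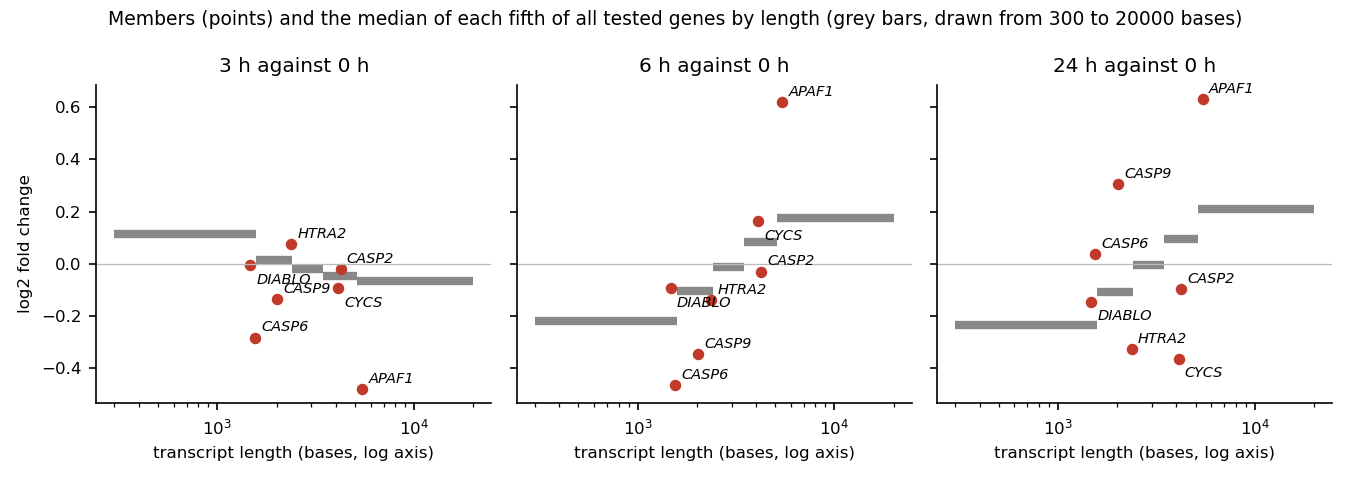
Log2 fold change against 0 h of each member (points) by transcript length in bases (log axis) at 3, 6 and 24 h, with the median of each of 5 length groups of all tested genes (grey bars). APAF1 lies beyond the bar of its length at each of these times, at -0.48, 0.62 and 0.63, and CYCS at 24 h (-0.36) lies on the other side of 0 from the bar of its length.

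CYCS (ENSG00000172115, GRCh38 chromosome 7, 25120091 to 25125361, minus strand) encodes cytochrome c, which also carries electrons in the respiratory chain of living cells. For this gene the 0 h libraries held 258, 259 and 299 CPM, the pair of 1 h 306 and 272, the 3 h libraries 248, 247 and 271, and the 6 h libraries 308, 294 and 311. Later levels were 219.8, 238 and 219 CPM (12 h), then 217, 200.5 and 216 (24 h). Every library at 12 and 24 h lay below every earlier one, while the 6 h libraries overlapped those of 0 h and lay above those of 3 h.

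For CYCS the log2 fold change was 0.16 at 6 h against 0 h (SE 0.0662, edgeR adjusted p = 0.0686), 0.25 at 6 h against 3 h (adjusted p = 0.00446) and -0.43 at 12 h against 6 h (adjusted p = 1.72e-04). In that last interval 20.6% of all genes and 3 of the 7 members were called. Against 0 h it fell by 0.27 on the log2 scale at 12 h (edgeR adjusted p = 0.0129) and by 0.36 at 24 h (5.05e-04). Replicate 3 of 0 h, the highest of its group, decided 2 of these values: without it the change was 0.23 at 6 h (adjusted p = 0.0152) and -0.20 at 12 h (0.0566). With length and GC trends removed, the difference of 6 h from 3 h was 0.11 (adjusted p = 0.0694). The many processed pseudogenes of CYCS took few counts: 5 of 40 entries had any, and they summed to at most 0.150% of the CYCS count in a library.

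CASP9 (ENSG00000132906, GRCh38 chromosome 1, 15490832 to 15526534, minus strand) is the initiator caspase of the apoptosome, and its counts of 95 to 190 per library were the smallest of the set. In the 0 h libraries it stood at 7.78, 8.35 and 9.15 CPM, in the pair of 1 h at 7.85 and 7.20, in the 3 h libraries at 7.42, 7.45 and 8.10, and in the 6 h libraries at 6.70, 6.30 and 6.85. Later levels were 11.9, 8.83 and 10.1 CPM (12 h), then 11.1, 10.8 and 9.21 (24 h). The 6 h libraries were the lowest of the series, and all 6 libraries of 12 and 24 h lay above them; those of 12 h overlapped 0 h, and those of 24 h lay just above it.

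The step from 6 to 12 h was the clearest for CASP9, at 0.62 on the log2 scale (SE 0.118, edgeR adjusted p = 0.001), and it passed under every alternative setting run. The changes against 0 h were smaller: -0.35 at 6 h (edgeR adjusted p = 0.0365), 0.28 at 12 h (0.12) and 0.31 at 24 h (0.0454). Those at 6 and 24 h did not hold in DESeq2 (adjusted p = 0.0759 and 0.1), without the filter on low counts (0.0741 and 0.0936) or with replicates 2 and 3 averaged at these times (0.0823 and 0.0787). That at 24 h also missed with upper-quartile scaling (0.0649) and with only the groups compared (0.0651). Each was lost too without any 1 of several libraries: replicate 2 or 3 of 0 h or any replicate of 6 h for the first, and replicate 1 or 2 of 0 h or of 24 h for the other. With length and GC trends removed, the 6 h change was -0.25 (edgeR adjusted p = 0.123) and that at 12 h 0.33 (0.0425).

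CASP6 (ENSG00000138794, GRCh38 chromosome 4, 109688622 to 109703583, minus strand) encodes an executioner caspase known for cleaving nuclear lamins. The 0 h libraries held 27.1, 23.2 and 25.0 CPM, the pair of 1 h 25.1 and 23.5, the 3 h libraries 20.7, 20.1 and 21.2, and the 6 h libraries 18.3, 19.8 and 16.6. Later levels were 22.6, 26.0 and 26.9 CPM (12 h), then 27.2, 25.7 and 24.4 (24 h). The libraries of 3 and 6 h lay below all others, and those of 12 and 24 h overlapped 0 h.

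The log2 fold change of CASP6 against 0 h was -0.28 at 3 h (SE 0.0882, edgeR adjusted p = 0.0321), -0.46 at 6 h (SE 0.0875, 7.63e-04), 0.0068 at 12 h (95% interval -0.17 to 0.18) and 0.04 at 24 h (-0.14 to 0.21). Between 6 and 12 h it rose by 0.47 (SE 0.0870, edgeR adjusted p = 8.19e-04). The 6 h decrease and the later rise were called under every alternative setting run. The 3 h decrease was not called without replicate 1 (adjusted p = 0.111) or 3 (0.0803) of 0 h, or without replicate 1 (0.0829) or 2 (0.101) of 3 h. With length and GC trends removed, the values were -0.33 at 3 h and -0.35 at 6 h, both still called (edgeR adjusted p = 0.00359 and 0.00171). CASP6 and CASP9 were both at their lowest mean at 6 h, when APAF1 and CYCS were above their 3 h level.

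CASP2 (ENSG00000106144, GRCh38 chromosome 7, 143288215 to 143307696, plus strand) encodes an initiator caspase that is activated on a platform of its own, not on the apoptosome. Its 0 h libraries had 46.5, 49.0 and 47.9 CPM, the pair of 1 h 50.7 and 43.4, the 3 h libraries 47.2, 45.6 and 48.5, and the 6 h libraries 46.3, 46.2 and 47.8. Later levels were 44.6, 44.5 and 40.8 CPM (12 h), then 42.9, 45.7 and 45.4 (24 h). Libraries of 12 and 24 h lay below those of 0 h without overlap, yet by little.

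For CASP2 the log2 fold change was -0.14 at 12 h (95% interval -0.28 to -0.0043, edgeR adjusted p = 0.166) and -0.10 at 24 h (-0.24 to 0.04, 0.261). An increase of more than 0.04 on the log2 scale at 24 h lay outside that interval. With length and GC trends removed both were called, at -0.19 (edgeR adjusted p = 0.0137) and -0.20 (0.00585). CASP2 is 4225 bases long, in the length group next to the longest.

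DIABLO (ENSG00000184047, GRCh38 chromosome 12, 122207663 to 122226568, minus strand) encodes the intermembrane protein that binds inhibitors of apoptosis. At the start, 0 h, its libraries gave 79.7, 77.8 and 75.9 CPM, the pair of 1 h 75.6 and 77.9, the 3 h libraries 75.5, 77.7 and 79.4, and the 6 h libraries 75.4, 66.3 and 76.9. Later levels were 72.6, 70.4 and 75.9 CPM (12 h), then 74.1, 69.0 and 67.9 (24 h). The 24 h libraries all lay below the 0 h libraries, and replicate 2 of 6 h was the lowest of the series.

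The DIABLO change against 0 h was -0.14 at 24 h (95% interval -0.27 to -0.02, edgeR adjusted p = 0.0737). It was called with upper-quartile scaling (adjusted p = 0.0449) and without replicate 1 of 24 h (0.0363), and it was -0.02 (0.794) with length and GC trends removed. DIABLO overlaps its second table entry and the gene AC048338.1 on the same strand. Its estimated count was not a whole number in 16 of 17 libraries, as happens where a fragment is divided between entries. The second entry summed to 4.27 counts over all libraries and was not whole in 3, and which entry shared the fragments was not tested. At 6 h the direction of DIABLO depended on the setting: -0.09 against 0 h in edgeR, and 0.05 with length and GC trends removed. From 3 to 6 h it was -0.09, not called, and 0.126, called, with the trends removed.

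HTRA2 (ENSG00000115317, GRCh38 chromosome 2, 74529377 to 74533348, plus strand) encodes the serine protease released beside DIABLO, which also handles misfolded proteins in healthy mitochondria. The 0 h libraries held 55.0, 45.9 and 49.7 CPM, the pair of 1 h 48.4 and 51.7, the 3 h libraries 53.7, 55.4 and 49.8, and the 6 h libraries 44.7, 45.3 and 46.8. Later levels were 46.3, 42.5 and 42.8 CPM (12 h), then 43.4, 37.2 and 39.4 (24 h). The 24 h libraries lay below all of 0 h, while those of 3, 6 and 12 h overlapped 0 h.

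HTRA2 fell by 0.33 on the log2 scale at 24 h against 0 h (SE 0.0758, edgeR adjusted p = 0.00293), and this was called under every setting run, at -0.20 (adjusted p = 0.019) with length and GC trends removed. At 12 h the change was -0.20 (edgeR adjusted p = 0.0907). From 3 to 6 h it was -0.22 (edgeR adjusted p = 0.0267), which did not pass with library size alone as the scaling (0.102), without the filter on low counts (0.0926), with replicates 2 and 3 averaged at 6 and 24 h (0.0553), with length and GC trends removed (0.15), or without replicate 1 or 2 of 3 h or of 6 h.

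The start of HTRA2 overlaps that of AUP1, a lipid droplet protein gene on the opposite strand (74526645 to 74529939), and the estimated counts of both were not whole in 17 of 17 libraries. Whether the counting used strand is not given in the sources used here, so reads of the shared stretch cannot be told apart. AUP1 averaged 215 ± 15.4 CPM (0 h), 253 ± 22.3 (3 h) and 151 ± 13.0 (24 h) with SD and n = 3, and its change at 24 h was -0.51 (edgeR adjusted p = 1.08e-04). Of 11328 genes with an average log2 CPM of 2 or more, AUP1 was also the one whose log2 level followed HTRA2 most closely over the 17 libraries, with Pearson's r of 0.943. The part of shared reads in this likeness was not tested. LOXL3, also on the opposite strand, overlaps HTRA2 as well, and its part in the counts of HTRA2 was not tested.

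**Figure D3:**
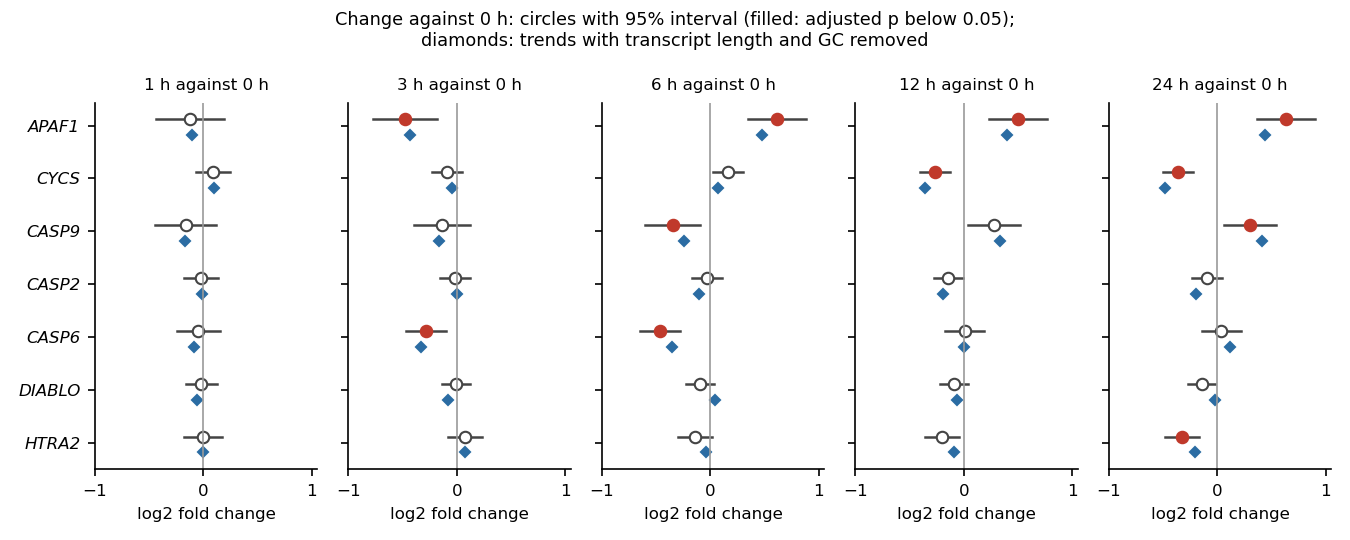
Log2 fold change of each member against 0 h at 1, 3, 6, 12 and 24 h. Circles with lines are the estimate and its 95% interval, filled where the edgeR adjusted p is below 0.05; diamonds are the estimates with length and GC trends removed. APAF1 crosses from -0.48 at 3 h to 0.62 at 6 h, CASP6 is called lower at 3 and 6 h, and CYCS reaches -0.36 at 24 h.

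Read by interval, 3 of 7 members were called from 3 to 6 h, where 43.2% of all genes were, and 3 of 7 from 6 to 12 h (20.6%). These 2 intervals also had the largest shares over all genes. From 0 to 1 h, from 1 to 3 h and from 12 to 24 h, 0 of 7 were called by edgeR, where 0.312%, 5.73% and 12% of all genes were. From 1 to 3 h the log2 changes of APAF1, CASP6 and CYCS were -0.36, -0.24 and -0.18, not called (edgeR adjusted p = 0.209, 0.18 and 0.173). Without the filter on low counts, APAF1 was called in this interval. Between 3 and 6 h, APAF1 and CYCS rose and HTRA2 fell; between 6 and 12 h, CASP9 and CASP6 rose and CYCS fell. The share of mitochondrially encoded counts also went from 7.99% to 8.97% in the 3 h libraries to 3.97% to 5.45% in those of 6 h, and its part in these differences was not tested. Groups of libraries did not overlap for 5 of 7 members between 3 and 6 h, where this held for 52.3% of all genes, and for 4 of 7 between 6 and 12 h (37.6%). Against 0 h they did not overlap for 0 of 7 at 1 h (19.1%), 2 after 3 h (33.9%), 3 after 6 h (44.1%), 3 after 12 h (32.6%) and 6 after 24 h (45.8%). From 1 to 3 h this held for 2 members (33.6%) and from 12 to 24 h for 1 (30%). In bulk RNA, a change in each cell and a change in which cells remained in the dish cannot be told apart.

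Over the 17 libraries, which share times and scaling, APAF1 and HTRA2 ran in opposite directions (Pearson's r = -0.87, Spearman's rho = -0.855), as did CASP9 and CYCS (-0.784 and -0.748). HTRA2 and DIABLO, the antagonists of inhibitors of apoptosis, went together (0.711 and 0.716), and so did the caspases CASP9 and CASP6 (0.659 and 0.667). CASP2, also a caspase, ran against CASP9 (-0.425 and -0.358) and against CASP6 (-0.348 and -0.358). It went with CYCS (0.611 and 0.627), and DIABLO ran against APAF1 (-0.711 and -0.696). The adaptor APAF1 and its caspase CASP9 were only loosely related (0.299 and 0.297), and APAF1 and CYCS hardly (-0.192 and -0.26). These are descriptions of the same libraries, with no test.

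The genes whose profile was most like that of a member, by Pearson's r of log2 CPM over the 17 libraries, were as follows. For APAF1 they were RASA1 (0.986) and VANGL1 (0.985), whose transcripts are 3752 and 8691 bases long. Next to CASP6 stood SOCS3 (0.942) and IFI16 (0.915), and next to CYCS stood PBX3 (0.934) and RRM2 (0.931), the latter a subunit of ribonucleotide reductase. For CASP9 the values were lower, 0.888 for HSD17B7 and 0.881 for MARCKSL1. After AUP1, HTRA2 was closest to AC011498.7 (0.941).

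All of 27 other genes of the pathway were tested, and 0 were called at 1 h, where 0.26% of all genes were called higher and 0.0521% lower. After 3 h, 2 were higher and 0 lower (9.04% and 8.71% of all genes), and after 6 h, 12 and 4 (16.9% and 13.2%). After 12 h, 5 were higher and 2 lower (5.96% and 6.48%), and after 24 h, 8 and 6 (18% and 17.1%). Their median log2 change was 0.10 at 6 h and 0.12 at 24 h, where that of all genes tested was -0.02 and -0.0017. With replicates 2 and 3 averaged at 6 and 24 h, since these pairs differed least (chi-square per gene of 1.57 and 1.67, against 3.68 to 13.5 for other replicate pairs), the counts were 6 higher and 2 lower at 6 h. That averaging also took the calls over all genes at 6 h from 2602 higher and 2025 lower to 1439 and 1093. The list was chosen with results of these data known and is a description.

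DFFA, PARP1 and LMNA, which encode caspase substrates, were called at 6 h, the first 2 higher at 0.19 and 0.22, and LMNA lower at -0.26. Apart from leaving out libraries, 13 alternatives gave DFFA 0.04 to 0.19, with its call lost in 5. They gave PARP1 0.15 to 0.22, lost in 1, and LMNA -0.33 to -0.21, lost in 0. The DFFA and PARP1 calls were lost with replicates 2 and 3 averaged and without replicate 1 of 0 h, among other settings.

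Of the inhibitors of apoptosis, BIRC3 and BIRC2, which encode ubiquitin ligases, and XIAP, which binds caspases directly, were higher: BIRC3 by 2.14 at 6 h and 2.04 at 24 h on the log2 scale, BIRC2 by 1.04 and 0.62, and XIAP by 0.42 and 0.41 (edgeR adjusted p = 0.00771 and 0.00725 for XIAP). At 3 and 12 h BIRC3 stood at 2.22 and 1.32, and BIRC2 at 0.47 and 0.44, each called higher by edgeR. XIAP, at -0.02 and 0.14 at these times, was called at neither (edgeR adjusted p = 0.925 and 0.446). With length and GC trends removed, XIAP stood at 0.21 and 0.17 at 6 and 24 h, still called. The XIAP increase did not pass at 6 h with replicates 2 and 3 averaged, nor at 24 h without replicate 2 of 24 h (a log2 change of 0.32). Together with BIRC5, BIRC6 and XAF1, an antagonist of XIAP, 5 of 6 genes were called higher at 6 h and 4 of 6 at 24 h, where 16.9% and 18% of all genes were. XAF1 was called at neither time. The BIRC5 call at 6 h was lost with upper-quartile scaling, with replicates 2 and 3 averaged, and without replicate 1 of 0 h or 3 of 6 h. The BIRC6 calls were lost with that averaging and without replicate 1 of 0 h or replicate 2 or 3 of the later time, and that at 24 h also with the trends removed. DIABLO at these times stood at -0.09 and -0.14, neither called.

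At the mitochondrion, the pore gene BAK1 rose by 0.43 at 6 h and 0.32 at 24 h (edgeR adjusted p = 1.21e-04 and 0.00121), and HCCS, which attaches haem to cytochrome c, by 0.30 at 6 h (0.00134). BID, which links death receptors to the pore, was called lower at 6 h (-0.24, edgeR adjusted p = 0.0267), a call lost with replicates 2 and 3 averaged (0.0672) and without replicate 2 or 3 of either time. BAX was called lower at 24 h (-0.22), a value that reversed to 0.11 with length and GC trends removed. ENDOG, a nuclease of the intermembrane space, was lower at 6 h (-0.60) and 24 h (-0.56). With the trends removed these were -0.31, still called, and -0.16, not called. Of the regulators of apoptosome assembly, HSPA8, a chaperone, rose by 1.10 at 6 h and 0.66 at 24 h (edgeR adjusted p = 3.48e-05 and 0.00151). In the same group PTMA, at -0.23, and AVEN, at -0.24, were called lower at 24 h (edgeR adjusted p = 0.00607 and 0.0356). With the trends removed, PTMA was -0.10 and still called, and AVEN was -0.09 and not called; the AVEN call was also lost in DESeq2 (0.0538) and under other settings. PIDD1, the scaffold on which CASP2 is activated, was called lower at 6, 12 and 24 h (-0.35, -0.45 and -0.39), calls that were lost without replicate 1 or without replicate 2 of 0 h, and the last, at -0.20, also with the trends removed.

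**Figure D4:**
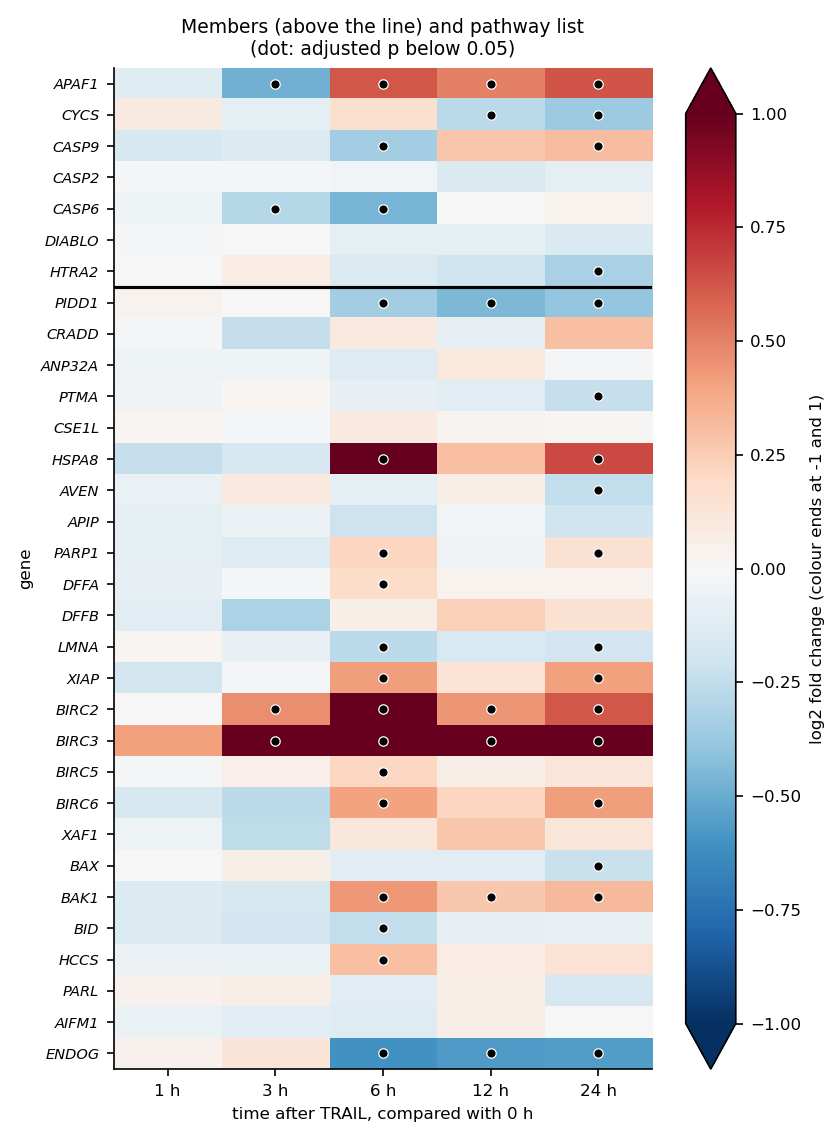
Log2 fold change against 0 h (colour, which ends at -1 and 1) of the 7 members above the line and 25 of the 27 other pathway genes under it, at 1, 3, 6, 12 and 24 h. A dot marks an edgeR adjusted p below 0.05; BIRC3 has 4 dots, DIABLO and CASP2 none.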

How the data were processed

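RNA of 17 MDA-MB-231 libraries was measured by poly(A)-selected, stranded, paired-end sequencing, per the labels' protocols. The authors deposited 1 table of expected counts, by its name from RSEM, not scaled for depth or length. Per the submitters' processing notes, cutadapt 1.18, STAR 2.7.0f and hg38 were used; the annotation and strand setting of the counting are not given in the sources used here. Estimated counts can be divided between overlapping or similar genes, which touches HTRA2, DIABLO and APAF1.

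Counts were rounded, filtered with filterByExpr (minimum count 10), scaled by TMM and tested in R 4.3.3 with edgeR 4.0.16 (robust quasi-likelihood fit, time as a factor, all 17 libraries), with Benjamini-Hochberg adjustment over 15365 genes and a threshold of 0.05. Scripts were tested on simulated data. CPM are TMM-scaled, and likeness used log2 CPM (prior count 2). Lengths and positions are of GENCODE on GRCh38, promoters of RefSeq. Total counts of 13731520 to 19234924 per library set the precision; for CASP9, with 95 to 190 counts, counting error is largest.

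All members were named with their level in every library, though not every comparison was given as a log2 change. Pathway genes called against 0 h were named, with the exception given below and not at each time they were called. The 2 genes most like each member that passed the F-test were named too. The members, lists and rules were chosen with earlier results of these data known. Alternatives were other scalings, no filter or a higher one, DESeq2 1.42.0, limma-voom 3.58.1, a replicate block, only the groups compared, averaging of replicates 2 and 3 at 6 and 24 h, removal of length and GC trends, and each library left out. Those for the pathway list, for AUP1, and the 1 h libraries left out were added after seeing the data. Other genes were left out, and 2 genes of the pathway list, which its counts include, are not reported here by name.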

Additional observations from a re-analysis of the deposited data

How the results depend on the processing

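In all alternatives run, APAF1 at 6 and 24 h, CASP6 at 6 h, CYCS and HTRA2 at 24 h against 0 h, APAF1 from 3 to 6 h, and CASP9, CASP6 and CYCS from 6 to 12 h kept their direction and their call. Other calls of members were lost under the settings given with each result, and those of the pathway list under these and further settings, of which the main ones are given; the causes were not tested. Depth limits CASP9 most.

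The number of members called was 4 instead of 2 at 12 h with length and GC trends removed, and 1 instead of 0 from 1 to 3 h without a filter. Over all genes, the calls at 12 h went from 916 higher and 995 lower to 1275 and 1213 with the trends removed. From 1 to 3 h they went from 487 and 393 to 589 and 630 without a filter. Leaving out 1 library gave 0 to 2 at 3 h (0 without replicate 3 of 0 h or replicate 1 or 2 of 3 h, 1 without replicate 1 or 2 of 0 h), 1 to 2 at 12 h (1 without replicate 1 or 3 of 0 h or replicate 2 of 12 h), 2 to 3 at 6 h, 3 to 4 at 24 h, 2 to 3 from 3 to 6 h, 3 from 6 to 12 h, 5 over all times, and 0 at 1 h, from 1 to 3 h and from 12 to 24 h. Over all genes, the calls at 3 h were 1389 higher and 1338 lower in the main fit. They were 746 and 666 without replicate 3 of 0 h, 877 and 797 without replicate 1 of 3 h, and 830 and 739 without replicate 2 of 3 h. Without replicate 1 or 2 of 0 h they were 1489 and 1369, or 791 and 763. At 12 h, leaving out 1 library gave 326 to 689 higher and 398 to 913 lower over all genes. The replicate numbers are not said to pair the libraries. Same-numbered libraries of different times correlated from -0.471 to 0.522 (median 0.049, and -0.014 for different numbers), and 8 of 17 were closest to their own number. These values do not settle whether the libraries were paired. With the replicate block, 3 members were called at 6 h and 4 at 24 h, as without it. All genes then had 2647 higher and 2043 lower at 6 h, and 2818 and 2641 at 24 h. CASP2 from 1 to 3 h was -2e-04 with that block.

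For the pathway list, the calls lower were 3 at 3 h and 3 at 24 h with library size alone, where all genes had 2153 and 1860. Without a filter, 1 was higher at 1 h and 2 lower at 3 h, where all genes had 132 and 1719. With replicates 2 and 3 averaged the list had 6 higher and 2 lower at 6 h and 3 lower at 24 h, where all genes had 1439, 1093 and 1755. With trends removed, 1 of the list was higher at 1 h, and 2, 1 and 2 were lower at 3, 12 and 24 h. All genes then had 61 higher at 1 h, and 1962, 1213 and 2434 lower at 3, 12 and 24 h. Leaving out 1 library gave 7 to 12 of the list higher and 2 to 5 lower at 6 h, 3 to 5 and 0 to 2 at 12 h, and 5 to 8 and 2 to 7 at 24 h. Over all genes it gave 1635 to 2804 higher and 1028 to 2102 lower at 6 h. At 12 h these were 326 to 689 and 398 to 913, and at 24 h 1751 to 3002 and 1693 to 2796.

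Some log2 values changed sign. Among them, BAX at 24 h was -0.22 and called in the main fit, and DIABLO from 3 to 6 h was -0.09 and not called there. With trends removed they were 0.0466 (6 h), -0.0156 (1 to 3 h), 0.126 (3 to 6 h, called), -0.106 (6 to 12 h) and 0.04 (12 to 24 h) for DIABLO, -8e-04 at 12 h for CASP6, -0.0051 from 12 to 24 h for CASP2, and 0.11 at 24 h for BAX. With library size alone CASP2 was -0.023 (1 to 3 h) and 0.0606 (3 to 6 h), and DIABLO -0.0076 (1 to 3 h). Without a filter CASP2 was -0.017 and 0.014 there, and DIABLO -0.0032. With upper-quartile scaling HTRA2 was 0.0013 at 1 h and 0.0157 from 6 to 12 h, and CASP2 -0.0121 from 1 to 3 h. With a mean minimum of 10 counts and with averaging, CASP6 was -0.0013 and -0.0017 at 12 h, and DIABLO -0.002 and -0.0104 from 6 to 12 h.

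With 1 library left out the ranges that crossed 0 were, at 1 h, APAF1 -0.292 to 0.0249, CASP2 -0.134 to 0.0806, CASP6 -0.0993 to 0.0134, DIABLO -0.0471 to 0.0069 and HTRA2 -0.0656 to 0.0666; at 3 h, CASP2 -0.0391 to 0.0042 and DIABLO -0.0207 to 0.0163; from 1 to 3 h, CASP2 -0.101 to 0.113, CASP9 -0.0293 to 0.0848 and DIABLO -0.0117 to 0.0428. CASP6 ranged from -0.0465 to 0.0671 at 12 h, -0.0161 to 0.0936 at 24 h and -0.0328 to 0.0804 from 12 to 24 h, CASP9 from -0.0725 to 0.143 from 12 to 24 h, CASP2 from -0.0354 to 0.008 from 3 to 6 h, and DIABLO from -0.0615 to 0.042 from 6 to 12 h.

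Over all genes, the split of calls at 3 h was 1389 higher and 1338 lower with TMM, and 913 and 2153 with library size alone; at 24 h it was 2763 and 2625 against 3742 and 1860, from 3 to 6 h 3526 and 3114 against 4301 and 2443, and at 6 h 2602 and 2025 against 1888 and 3047 with upper-quartile scaling.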
